A study of Arabidopsis thaliana with 18 samples.

Results

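The genes described here are 10 parts of the Arabidopsis myrosinase system, out of 32833 genes in the deposited count table: the myrosinases TGG1 and TGG2, the beta-glucosidase BGLU18, the specifier proteins ESP, NSP1 and NSP5, the modifier ESM1, and the myrosinase-binding or jacalin lectin proteins MBP1, MBP2 and JAL23. They were chosen by gene identifier from a gene family of known function, with earlier results on these same libraries already known. Their calls are therefore a description of the libraries and not independent evidence about the family. All 10 genes passed the filter on low counts in both experiments.

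RNA was sequenced from Arabidopsis thaliana of the accession Col-0, in 6 groups of 3 libraries. In the disc experiment, pieces of mature rosette leaf from plants 4 weeks old spent the night in dilute MS medium with 1% fructose, 1% glucose or, as the osmotic control, 1% mannitol. In the leaf experiment, untreated leaf tissue came from plants of the same age, from 2 lines that overexpress ERDL4 (overexpressor 1 and overexpressor 2), which encodes a tonoplast transporter of sugars, and from wild type. All plants grew in a cycle of 10 h light and 14 h dark. The labels do not give the promoter that drives ERDL4, how the 2 lines arose, or whether a group's libraries stem from different plants. The library titles call them biological replicates, without saying which step was repeated. The p-values therefore speak of library-to-library spread alone, part of which may be technical. Library totals ran from 17318810 to 26157641 counts. ERDL4 itself held 350 to 359 CPM in overexpressor 1 and 568 to 604.5 CPM in overexpressor 2, against 111 to 152 CPM in wild type. Levels are CPM, counts relative to the library total, after TMM scaling within each experiment.

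Glucosinolates are sulfur-rich defence compounds of the cabbage order, stored apart from the myrosinases that split them. When tissue is crushed, myrosinase removes the glucose and leaves an unstable aglucone. That aglucone turns into an isothiocyanate unless a specifier protein diverts it to a nitrile or an epithionitrile, and ESM1 is known to favour the isothiocyanate. In leaves the classical myrosinases sit in myrosin cells along the veins and in guard cells, whereas BGLU18 is a beta-glucosidase of the endoplasmic reticulum bodies (ER bodies) of the rosette leaf. Myrosinase-binding proteins are jacalin-type lectins first found in complexes with myrosinase in oilseed rape.

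The 250 bases before the annotated start are shown for the myrosinases, because both fell in the overexpressors and lie close together on one chromosome, and for BGLU18, NSP1 and the 3 lectins, because their log2 rise was over 2 in both overexpressors. Sequence and coordinates are from the RefSeq copy of TAIR10.1, on the strand of each gene. Capitals mark the E-box CANNTG, the general core of sites for bHLH factors, which reads the same on both strands and includes the G-box CACGTG. The windows are chr5:9082385-9082634 (minus strand) for TGG1, chr5:9072458-9072707 (plus strand) for TGG2, chr1:19514739-19514988 (plus strand) for BGLU18, chr3:5565833-5566082 (plus strand) for NSP1, chr1:19352792-19353041 (minus strand) for MBP1, chr1:19349089-19349338 (minus strand) for MBP2 and chr2:16422159-16422408 (minus strand) for JAL23.
TGG1: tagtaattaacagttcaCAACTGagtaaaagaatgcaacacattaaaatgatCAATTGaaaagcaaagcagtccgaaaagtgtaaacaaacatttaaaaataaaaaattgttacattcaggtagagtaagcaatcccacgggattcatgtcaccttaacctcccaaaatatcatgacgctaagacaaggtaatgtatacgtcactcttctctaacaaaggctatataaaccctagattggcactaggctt
TGG2: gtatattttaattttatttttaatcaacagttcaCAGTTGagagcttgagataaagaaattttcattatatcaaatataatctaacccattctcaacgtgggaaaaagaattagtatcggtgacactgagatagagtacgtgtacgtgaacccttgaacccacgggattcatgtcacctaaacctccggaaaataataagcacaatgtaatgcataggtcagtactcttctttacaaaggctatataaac
BGLU18: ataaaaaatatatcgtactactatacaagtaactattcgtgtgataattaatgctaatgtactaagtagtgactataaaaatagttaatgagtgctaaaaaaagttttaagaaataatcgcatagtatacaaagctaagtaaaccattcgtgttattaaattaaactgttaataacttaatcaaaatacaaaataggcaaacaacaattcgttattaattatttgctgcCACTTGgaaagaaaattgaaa
NSP1: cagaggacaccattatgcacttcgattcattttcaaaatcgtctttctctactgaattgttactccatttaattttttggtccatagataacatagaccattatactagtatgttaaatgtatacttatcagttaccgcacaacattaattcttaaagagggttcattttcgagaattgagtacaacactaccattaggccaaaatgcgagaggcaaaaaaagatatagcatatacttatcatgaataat
MBP1: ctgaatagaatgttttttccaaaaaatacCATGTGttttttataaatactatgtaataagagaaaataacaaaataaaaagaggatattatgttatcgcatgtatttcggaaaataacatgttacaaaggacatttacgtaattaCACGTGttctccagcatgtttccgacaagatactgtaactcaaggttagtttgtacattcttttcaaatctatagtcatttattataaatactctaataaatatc
MBP2: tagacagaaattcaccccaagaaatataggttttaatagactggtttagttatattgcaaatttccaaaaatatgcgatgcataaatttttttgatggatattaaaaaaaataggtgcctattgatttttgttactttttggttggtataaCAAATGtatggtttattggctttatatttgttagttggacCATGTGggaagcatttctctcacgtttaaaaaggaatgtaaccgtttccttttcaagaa
JAL23: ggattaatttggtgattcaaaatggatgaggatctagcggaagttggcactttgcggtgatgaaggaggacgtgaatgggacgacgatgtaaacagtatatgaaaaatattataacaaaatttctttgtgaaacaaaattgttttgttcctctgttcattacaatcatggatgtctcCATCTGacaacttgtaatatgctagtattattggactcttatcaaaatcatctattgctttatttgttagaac
The E-box occurred in 9 of the 10 windows, against 55.3% of the windows of 27443 protein-coding genes, and NSP1 was the window without it. The G-box occurred in 1 of the 10 windows, that of MBP1, starting 105 bases before the gene, against 6.49% of all windows. The W-box core TTGAC, searched on both strands, occurred in 1 window (ESP), against 44.9% of all. The TATCCA element, also searched on both strands, occurred in 1 window (MBP2), against 13.6% of all. The letters TATATAA, on either strand, occurred in 3 windows (TGG1, TGG2 and ESP), against 20.4% of all. These matches describe letters in the window only. The 2 myrosinase windows share a run of 21 bases, which starts 116 bases before TGG1 and 92 bases before TGG2. No other protein-coding gene's window held it on either strand (2 of 27443 windows), and the longest run shared by any other pair among the 10 genes was 10 bases.
shared run: cccacgggattcatgtcacct

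TGG1 (AT5G26000, chromosome 5, 9079452 to 9082384, minus strand, 12 exons) and TGG2 (AT5G25980, chromosome 5, 9072708 to 9075777, plus strand, 12 exons) are 3674 bases apart and point in opposite directions, and 2 other genes lie between them. Their coding sequences are 82.18% identical, but only 6 windows of 50 exon bases occur in both genes, 0.455% of those of TGG1, so few reads could be split between them. MBP1 (AT1G52040, chromosome 1, 19350314 to 19352791, minus strand) and MBP2 (AT1G52030, chromosome 1, 19345871 to 19349088, minus strand) are direct neighbours, 1225 bases apart, 75.92% identical in coding sequence and with 24 windows in common. BGLU18 (AT1G52400, chromosome 1, 19514989 to 19518411, plus strand, 12 exons) has no repeated window, and its downstream neighbour is TSA1, which encodes a protein of leaf ER bodies. JAL23 (AT2G39330) lies on chromosome 2 from 16419483 to 16422158 on the minus strand, ESP (AT1G54040) on chromosome 1 from 20170715 to 20173949 on the minus strand, and NSP5 (AT5G48180) on chromosome 5 from 19540937 to 19542760 on the minus strand. NSP1 (AT3G16400, chromosome 3, 5566083 to 5568545, plus strand) shares 515 of its 1914 windows with its neighbour NSP4, so reads of NSP1 and NSP4 may have been split. ESM1 (AT3G14210, chromosome 3, 4729399 to 4731847, plus strand) has 24.9% of its windows repeated, none of them inside another annotated gene. Whether the copies lie inside ESM1 itself or elsewhere was not determined, so its counts may or may not miss reads. None of the 10 genes overlaps another gene.

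In leaves of the overexpressors the classical myrosinases fell while the ER body beta-glucosidase and the lectins rose. In overexpressor 1 against wild type 7 of the 10 genes rose and 3 fell by edgeR's quasi-likelihood test with a Benjamini-Hochberg adjusted p under 0.05, where 21.5% of the 18703 genes tested rose and 22.3% fell. In overexpressor 2 against the same wild type again 7 rose and 3 fell, where 20.6% of genes rose and 21.5% fell. Both comparisons share the 3 wild-type libraries, so they are not independent of each other. The median log2 fold change of the 10 genes was 1.45 in overexpressor 1 and 1.77 in overexpressor 2, beside medians of 0.01 and 0.02 over all genes tested. Scaled by library size alone, 68.7% of all called genes were higher in overexpressor 1 and 74.4% in overexpressor 2, beside 49% in each with TMM. The groups did not overlap for 9 of the 10 genes in overexpressor 1, where the same held for 56.2% of all genes tested, and for 10 of 10 in overexpressor 2, where it held for 53.0%.

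**Figure D1:**
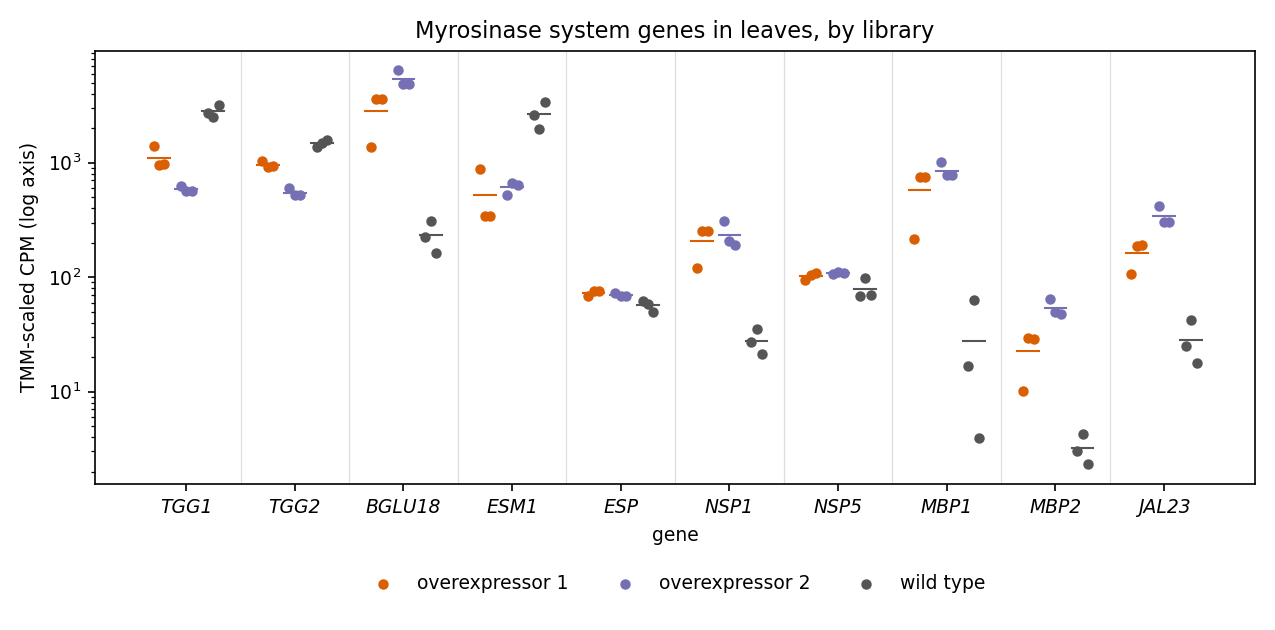
TMM-scaled CPM on a log axis for the 10 genes in leaves, with 1 point per library and a line at the mean of 3 libraries, for overexpressor 1, overexpressor 2 and wild type. TGG1, TGG2 and ESM1 lie lower in both overexpressors than in wild type, BGLU18, NSP1, MBP1, MBP2 and JAL23 lie far higher, and ESP and NSP5 lie only slightly higher.

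TGG1, the main myrosinase of leaves, held 1391, 958.5 and 977 CPM in overexpressor 1 and 623.5, 570.2 and 568 CPM in overexpressor 2, against 2737, 2515 and 3215 CPM in wild type. Every overexpressor library was below every wild-type library, and overexpressor 2 was below overexpressor 1. TGG1 fell by 1.35 ± 0.17 on the log2 scale in overexpressor 1 (SE, n = 3 per group; edgeR adjusted p = 0.000403) and by 2.26 ± 0.18 in overexpressor 2 (edgeR adjusted p = 7.5e-05). TGG2, its close relative, held 1043, 918 and 928 CPM in overexpressor 1 and 598, 525 and 518 CPM in overexpressor 2, against 1374, 1494 and 1579 CPM in wild type. TGG2 was lower in the same order of groups, with no overlap between any of them. TGG2 fell by 0.62 ± 0.12 in overexpressor 1 (edgeR adjusted p = 0.00254) and by 1.44 ± 0.12 in overexpressor 2 (edgeR adjusted p = 0.0001). The fall of TGG2 in overexpressor 1 was not called when all 18 libraries were fitted together (edgeR adjusted p = 0.235). The log2 fall was larger for TGG1 than for TGG2 in both lines, a difference that was not tested. Per kilobase of exon the TGG1 to TGG2 ratio was 1.39, 1.09 and 1.10 in overexpressor 1 and 1.08, 1.13 and 1.14 in overexpressor 2, against 2.07, 1.75 and 2.12 in wild type.

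In bulk tissue, fewer cells of a type and less RNA per cell cannot be told apart, and this applies first to the myrosinases, which few leaf cells express. The 9 markers of guard cells and myrosin cells summed to 96.6 to 102 CPM in overexpressor 1 and 86.1 to 87.7 CPM in overexpressor 2, against 109 to 129 CPM in wild type. Both cell types are pooled in this list, so its sum does not tell them apart. Of these 9 markers, 2 rose and 2 fell in overexpressor 1 and 1 rose and 2 fell in overexpressor 2, and none was at 0. Of all genes tested, 21.5% rose and 22.3% fell in overexpressor 1, and 20.6% and 21.5% in overexpressor 2. All 6 markers of mesophyll fell in both lines, and their sum was 23790 to 30920 CPM in overexpressor 1 and 21430 to 24740 CPM in overexpressor 2, against 44720 to 69560 CPM in wild type. The 4 phloem markers summed to 905 to 943 CPM in overexpressor 1 and 702 to 724 CPM in overexpressor 2, against 620 to 663 CPM in wild type (2 rose and 1 fell in overexpressor 1, and 1 rose and 1 fell in overexpressor 2). The 6 epidermis markers summed to 898 to 1003 CPM in overexpressor 1 and 621 to 726 CPM in overexpressor 2, against 777 to 902 CPM in wild type (2 rose and 2 fell in overexpressor 1, and 0 rose and 3 fell in overexpressor 2). The part of these shifts in the changes of the 10 genes was not tested. Markers of root, flower and seed storage each summed to at most 1.14 CPM in any leaf library; at least 3 of the 5 root markers and 7 of the 8 seed storage markers were at 0 in each group.

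BGLU18, a glucoside-splitting enzyme of ER bodies, was the most changed of the enzymes. It held 1384, 3594 and 3584 CPM in overexpressor 1 and 6400, 4868 and 4829 CPM in overexpressor 2, against 226, 312 and 161 CPM in wild type. All 6 overexpressor libraries were above all wild-type libraries, and replicate 1 of overexpressor 1 was the one nearest to wild type. BGLU18 rose by 3.61 ± 0.40 in overexpressor 1 (edgeR adjusted p = 0.000332) and by 4.52 ± 0.42 in overexpressor 2 (edgeR adjusted p = 0.000164), or 12.2-fold and 23.0-fold. It took 0.143% to 0.374% of all counts in overexpressor 1 and 0.532% to 0.659% in overexpressor 2, against 0.0138% to 0.0305% in wild type. Per kilobase of exon the BGLU18 to TGG1 ratio was 0.808, 3.04 and 2.98 in overexpressor 1 and 8.33, 6.93 and 6.90 in overexpressor 2, against 0.0670, 0.101 and 0.0407 in wild type. That ratio was above 1 in 5 of the 6 overexpressor libraries, and below 1 in every wild-type library and in replicate 1 of overexpressor 1.

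Among the specifiers, NSP1, which directs breakdown to simple nitriles, held 119, 252.5 and 251 CPM in overexpressor 1 and 310.3, 206 and 190.2 CPM in overexpressor 2, against 27.3, 35.4 and 21.1 CPM in wild type. No overexpressor library reached down to wild type. NSP1 rose by 2.89 ± 0.34 in overexpressor 1 (edgeR adjusted p = 0.000385) and by 3.08 ± 0.34 in overexpressor 2 (edgeR adjusted p = 0.00031). ESP, which directs breakdown to epithionitriles and nitriles, held 68.6, 75.8 and 75.4 CPM in overexpressor 1 and 73.3, 68.7 and 68.7 CPM in overexpressor 2, against 61.8, 58.6 and 49.4 CPM in wild type. The groups did not overlap but the gap was small. ESP rose by 0.37 ± 0.11 (edgeR adjusted p = 0.0178) in overexpressor 1 and by 0.31 ± 0.11 (edgeR adjusted p = 0.0393) in overexpressor 2. NSP5, another nitrile specifier, held 94.0, 105 and 108 CPM in overexpressor 1 and 106.5, 111 and 109 CPM in overexpressor 2, against 68.6, 97.5 and 69.6 CPM in wild type. Replicate 2 of wild type lay within the range of overexpressor 1. NSP5 rose by 0.38 ± 0.14 (edgeR adjusted p = 0.049) in overexpressor 1 and by 0.47 ± 0.14 (edgeR adjusted p = 0.0225) in overexpressor 2.

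The small rises of ESP and NSP5 depended on single libraries and on processing choices. For ESP, the call in overexpressor 1 was lost without replicate 2 (edgeR adjusted p = 0.069) or 3 (0.0662) of overexpressor 1 or replicate 3 of wild type (0.0518). The call of ESP in overexpressor 2 was lost without replicate 1, 2 or 3 of overexpressor 2 (edgeR adjusted p = 0.0782, 0.0769 and 0.0791), replicate 2 or 3 of overexpressor 1 (0.0606 each) or replicate 3 of wild type (0.1). For NSP5, the call in overexpressor 1 was lost without replicate 1 or 3 of wild type (edgeR adjusted p = 0.145 and 0.14), replicate 2 or 3 of overexpressor 1 (0.128 and 0.144) or any of the 3 libraries of overexpressor 2 (0.0527, 0.0694 and 0.07). The call of NSP5 in overexpressor 2 was lost without replicate 1 or 3 of wild type (edgeR adjusted p = 0.0745 and 0.0692) or replicate 2 or 3 of overexpressor 2 (0.0632 and 0.0586). The call of NSP5 in overexpressor 1 was also lost with RLE scaling (edgeR adjusted p = 0.053), with a filter of 1 CPM in 3 libraries (0.0507) and with only the 2 groups in the fit (0.0861), and that of ESP in overexpressor 2 with only the 2 groups (0.0702) and with the replicate block (0.0523). With all 18 libraries in 1 fit neither gene was called in either line (edgeR adjusted p = 0.112 to 0.445).

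ESM1, the modifier that favours isothiocyanates, went the other way from NSP1. It held 882, 345 and 344 CPM in overexpressor 1 and 525, 663 and 640.4 CPM in overexpressor 2, against 2629, 1986 and 3388 CPM in wild type. Every overexpressor library was below every wild-type library, and replicate 1 of overexpressor 1 was again the one nearest to wild type. ESM1 fell by 2.35 ± 0.38 in overexpressor 1 (edgeR adjusted p = 0.00128) and by 2.13 ± 0.37 in overexpressor 2 (edgeR adjusted p = 0.00217). Without replicate 1 of overexpressor 1 the log2 change in that line was -2.95 (edgeR adjusted p = 2.1e-05).

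The 3 lectins rose together in the leaves. MBP1, which is named as a myrosinase-binding protein, held 216, 754.5 and 757 CPM in overexpressor 1 and 1010, 773 and 773 CPM in overexpressor 2, against 16.8, 62.7 and 3.90 CPM in wild type. The wild-type libraries themselves differed widely, and replicate 2 was the highest of them. MBP1 rose by 4.37 ± 0.93 in overexpressor 1 (edgeR adjusted p = 0.00594) and by 4.94 ± 0.96 in overexpressor 2 (edgeR adjusted p = 0.00426); without replicate 2 of wild type the log2 changes were 5.82 (edgeR adjusted p = 0.0014) and 6.39 (edgeR adjusted p = 0.00119). MBP2, its neighbour, held 10.09, 29.2 and 28.7 CPM in overexpressor 1 and 64.9, 49.4 and 47.4 CPM in overexpressor 2, against 3.03, 4.26 and 2.32 CPM in wild type. The 3 groups were fully separate, in the order overexpressor 2, overexpressor 1, wild type. MBP2 rose by 2.83 ± 0.42 in overexpressor 1 (edgeR adjusted p = 0.00107) and by 4.07 ± 0.43 in overexpressor 2 (edgeR adjusted p = 0.000315). JAL23, a jacalin-related lectin, held 106, 188 and 191 CPM in overexpressor 1 and 415, 303 and 301 CPM in overexpressor 2, against 24.9, 42.1 and 17.9 CPM in wild type. Its groups were separate in the same order. JAL23 rose by 2.51 ± 0.34 in overexpressor 1 (edgeR adjusted p = 0.000624) and by 3.59 ± 0.36 in overexpressor 2 (edgeR adjusted p = 0.000214).

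Replicates 2 and 3 of each overexpressor were close to copies of each other: over all genes with enough counts, their chi-square per degree of freedom was 2.07 in overexpressor 1 and 1.7 in overexpressor 2, while the other 16 replicate pairs ran from 4.59 to 66.1. With each close pair summed into 1 library, 8 of the 10 genes were still called in both lines. The share of all genes called in that fit is not given here. The exceptions were ESP (edgeR adjusted p = 0.103 in overexpressor 1 and 0.119 in overexpressor 2) and NSP5 (edgeR adjusted p = 0.18 and 0.0909). Replicate 1 of overexpressor 1 was the lowest of its group for 7 of the 10 genes and the highest for TGG1, TGG2 and ESM1, so it lay nearest to wild type for all 10. Replicate 1 of overexpressor 2 was the highest of its group for 8 of the 10 genes.

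Between the lines, overexpressor 2 against overexpressor 1, none of the 10 genes was called higher or lower by edgeR, where 0.0321% of the 18703 genes tested were higher and 0.0214% lower. The groups did not overlap for 6 of the 10, against 24.6% of all genes tested. Before adjustment 5 genes had an edgeR p under 0.05 (TGG1, TGG2, BGLU18, MBP2 and JAL23). DESeq2 called 2 higher (JAL23 and MBP2) and 2 lower (TGG1 and TGG2), and limma-voom called 0. The shares of all genes for these other counts are not given here, and the edgeR shares above do not apply to them. The log2 difference was -0.82 ± 0.12 for TGG2 (edgeR adjusted p = 0.0628, 95% interval -1.08 to -0.55) and -0.92 ± 0.17 for TGG1 (edgeR adjusted p = 0.0858, interval -1.29 to -0.54). Without replicate 2 of wild type, a library of neither line, edgeR called both myrosinases lower in overexpressor 2 (adjusted p = 0.017 for TGG2 and 0.0251 for TGG1). Without replicate 1 of overexpressor 2 it called TGG2 (adjusted p = 0.0292). For ESM1 the interval ran from -0.59 to 1.03, so the lines may differ there in either direction.

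Compared per kilobase of exon, the order of the 10 genes in leaves changed between genotypes. In overexpressor 1 BGLU18 led with 1223 ± 546 CPM per kb (SD, n = 3), followed by TGG1 with 586 ± 129 and TGG2 with 489 ± 35.2 CPM per kb; neighbours among these 3 overlapped between libraries. In overexpressor 2 BGLU18 led with 2300.0 ± 384 CPM per kb, above every library of MBP1 with 487 ± 78.0 CPM per kb, and ESM1, TGG1 and TGG2 followed at 312 ± 37.8, 310.2 ± 16.6 and 278 ± 22.4 CPM per kb with overlapping neighbours. In wild type TGG1 led with 1491 ± 189 CPM per kb and overlapped ESM1 with 1367 ± 360 CPM per kb, while TGG2 at 752.5 ± 52.4 and BGLU18 at 99.9 ± 32.4 CPM per kb stood clear of their neighbours. MBP2 was the lowest in every leaf group, at 7.46 ± 3.59 CPM per kb in overexpressor 1, 17.7 ± 3.14 in overexpressor 2 and 1.05 ± 0.324 in wild type. The 10 genes together took 0.548% to 0.752% of counts in overexpressor 1 and 0.887% to 1.04% in overexpressor 2, against 0.618% to 0.725% in wild type.

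In the leaf discs most of the 10 genes were lower with glucose and none was called with fructose. In glucose against mannitol 6 of the 10 genes fell (TGG1, BGLU18, ESM1, NSP1, MBP1 and JAL23) and 1 rose (NSP5), where 38.5% of the 18784 genes tested were higher and 35.5% lower. The median log2 fold change of the 10 genes was -1.69, beside 0.03 over all genes tested, and the groups did not overlap for 8 of the 10, close to the 77.2% of all genes tested. Fructose against mannitol called none of the 10 higher or lower, where 36.6% of genes were higher and 29.5% lower. The groups overlapped for all 10, whereas they did not overlap for 73.0% of all genes tested. No gene had an unadjusted p under 0.05 there, and DESeq2 and limma-voom also called 0. The 95% intervals were wide for most of the genes, such as -1.54 to 2.58 for BGLU18 and -1.67 to 2.02 for JAL23 (log2). The lack of a call in fructose therefore does not show a lack of change. The median of the 10 genes in fructose was 0.20, beside 0.09 over all genes tested. Both comparisons share the mannitol libraries. Scaled by library size alone, 68.2% of all called genes were higher in fructose against mannitol, beside 55.3% with TMM.

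**Figure D2:**
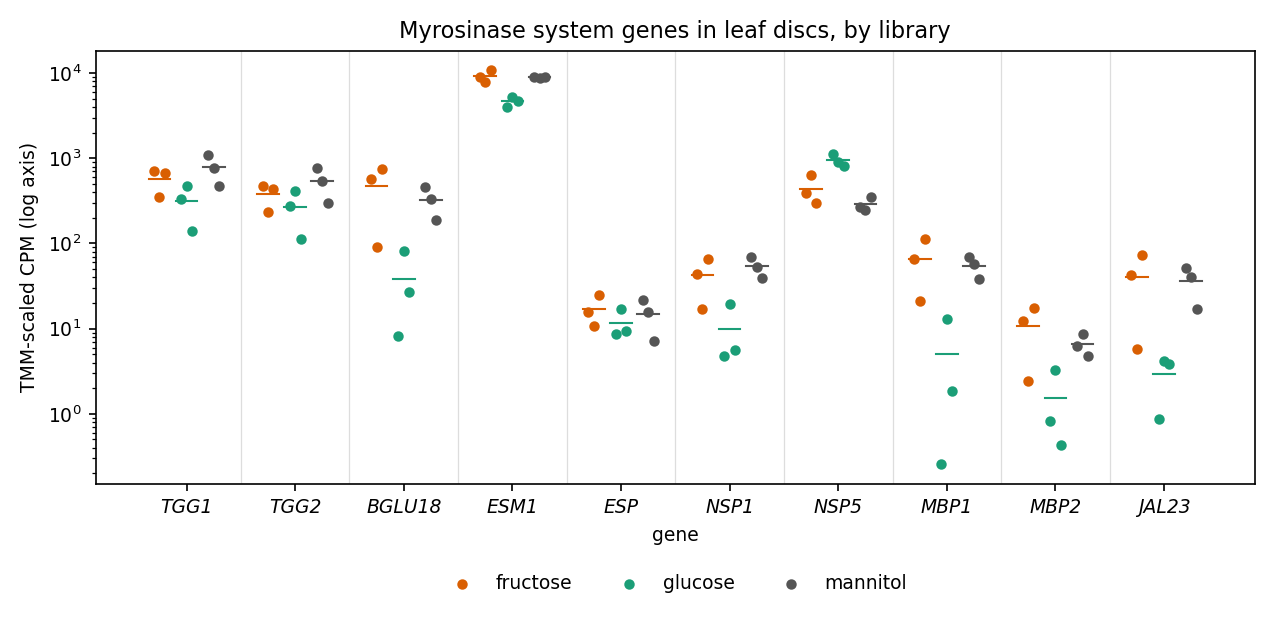
TMM-scaled CPM on a log axis for the 10 genes in leaf discs, with 1 point per library and a line at the mean of 3 libraries, for fructose, glucose and mannitol. The glucose mean lies highest for NSP5 and lowest for every other gene, though the groups of TGG2 and ESP overlap. Replicate 2 of glucose and replicate 2 of fructose lie close to each other for BGLU18, NSP1, MBP2 and JAL23.

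Fructose and glucose are hexose isomers, a ketose and an aldose, and mannitol is a sugar alcohol. They were given at the same 1% and for the same time, and 3 pairs of sugars were compared, each with p-values adjusted over all genes. In fructose against glucose, 6 of the 10 genes were higher (BGLU18, ESM1, NSP1, MBP1, MBP2 and JAL23) and 1 was lower (NSP5), where 24.7% of the genes tested were higher and 24.6% lower. The groups did not overlap for 5 of the 10, against 60.9% of all genes tested. The differences for TGG1 (log2 0.86, 95% interval -0.24 to 1.96), TGG2 (0.52, -0.66 to 1.71) and ESP (0.57, -0.49 to 1.62) did not pass the test, and their intervals allow a difference of over 2-fold.

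TGG1 in discs held 700.5, 349 and 665 CPM in fructose and 333.5, 470.5 and 141 CPM in glucose, against 1090, 778 and 478 CPM in mannitol. Each group spread widely and fructose overlapped both others, while glucose lay below mannitol. TGG1 fell by 1.31 ± 0.48 in glucose against mannitol (edgeR adjusted p = 0.036). The call was lost without replicate 1 or 2 of mannitol (edgeR adjusted p = 0.12 and 0.0711), replicate 1 or 3 of glucose (0.0541 and 0.0708) or replicate 3 of fructose (0.0557), and also with library size as the only scaling (0.0614), with no filter (0.0718) or with only the 2 groups in the fit (0.0578). TGG2 held 470, 231 and 441 CPM in fructose and 272, 410 and 112.5 CPM in glucose, against 778, 534 and 298 CPM in mannitol. Here all 3 groups overlapped. The TGG2 difference in glucose against mannitol was -1.02 ± 0.52 (edgeR adjusted p = 0.107), and it was called without replicate 2 of glucose (-1.48, edgeR adjusted p = 0.0293) and with all 18 libraries in 1 fit (-1.04, edgeR adjusted p = 0.0225). The TGG1 to TGG2 ratio per kilobase was 1.55, 1.57 and 1.57 in fructose and 1.28, 1.195 and 1.31 in glucose, against 1.46, 1.51 and 1.67 in mannitol, so it was lowest in the 3 glucose libraries.

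BGLU18 in discs held 570, 90.6 and 749 CPM in fructose and 8.25, 81.0 and 26.7 CPM in glucose, against 463, 332 and 187.5 CPM in mannitol. Glucose was below mannitol in every library, and replicate 2 of fructose lay near the highest glucose library. BGLU18 fell by 3.08 ± 0.97 in glucose against mannitol (edgeR adjusted p = 0.0191), and it was 3.60 ± 0.99 higher on the log2 scale in fructose than in glucose (edgeR adjusted p = 0.0181). The fall against mannitol was larger without replicate 2 of glucose (-4.22, edgeR adjusted p = 0.00416) and was not called without replicate 3 of glucose (edgeR adjusted p = 0.0572) or replicate 1 of mannitol (0.05), or with no filter (0.05). The difference from fructose was not called without replicate 3 of fructose (edgeR adjusted p = 0.0686) or of glucose (0.0559).

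ESM1 ranked 2 among all genes of the disc experiment by summed counts. It held 9073, 7795 and 10730 CPM in fructose and 4003, 5289 and 4736 CPM in glucose, against 9034, 8682 and 8942 CPM in mannitol. The glucose libraries were below all others, and fructose spanned mannitol. ESM1 fell by 0.93 ± 0.16 in glucose against mannitol (edgeR adjusted p = 0.000426) and was 0.98 ± 0.16 higher in fructose than in glucose (edgeR adjusted p = 0.00182). Its difference in fructose against mannitol was 0.05, with a 95% interval from -0.31 to 0.41, the narrowest of the 10 genes.

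NSP5 was the gene that rose with glucose. It held 386, 642 and 296 CPM in fructose and 1127, 905 and 821 CPM in glucose, against 269, 249 and 350.1 CPM in mannitol. All glucose libraries were above all others. NSP5 rose by 1.72 ± 0.28 in glucose against mannitol (edgeR adjusted p = 0.000335) and was lower by 1.11 ± 0.27 in fructose than in glucose (log2 -1.11, edgeR adjusted p = 0.00948). In fructose against mannitol its difference was 0.61 ± 0.27 (edgeR adjusted p = 0.0725, interval 0.00 to 1.22), and it was called without replicate 3 of fructose (0.83, edgeR adjusted p = 0.0132). NSP1, the related specifier, held 43.5, 17.2 and 66.5 CPM in fructose and 4.71, 19.4 and 5.56 CPM in glucose, against 69.9, 53.6 and 39.8 CPM in mannitol. All glucose libraries of NSP1 were below all mannitol libraries, and replicate 2 of fructose overlapped glucose. It fell by 2.45 ± 0.65 in glucose against mannitol (edgeR adjusted p = 0.00848) and was 2.10 ± 0.64 higher in fructose than in glucose (edgeR adjusted p = 0.0273), so the specifiers NSP1 and NSP5 moved in opposite directions in glucose. ESP held 15.8, 10.9 and 24.8 CPM in fructose and 8.55, 16.9 and 9.33 CPM in glucose, against 21.6, 15.7 and 7.14 CPM in mannitol. Its 3 groups overlapped, and its difference in glucose against mannitol was -0.34 ± 0.46 (edgeR adjusted p = 0.52, interval -1.40 to 0.72).

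The lectins had their lowest levels in glucose. MBP1 held 65.7, 21.2 and 111 CPM in fructose and 0.256, 12.9 and 1.84 CPM in glucose, against 69.4, 57.5 and 37.8 CPM in mannitol. The glucose libraries were below all others, and the lowest of them had 5 reads. MBP1 fell by 3.43 ± 1.02 in glucose against mannitol (edgeR adjusted p = 0.0145) and was 3.70 ± 1.02 higher in fructose than in glucose (edgeR adjusted p = 0.0183). JAL23 held 42.8, 5.82 and 73.6 CPM in fructose and 0.871, 4.12 and 3.87 CPM in glucose, against 51.4, 40.2 and 17.1 CPM in mannitol. Its glucose libraries were below all others too. It fell by 3.60 ± 0.95 in glucose against mannitol (edgeR adjusted p = 0.00841; 0.0794 by limma-voom) and was 3.77 ± 0.95 higher in fructose than in glucose (edgeR adjusted p = 0.0127; 0.121 by limma-voom). MBP2 held 12.3, 2.43 and 17.7 CPM in fructose and 0.820, 3.31 and 0.435 CPM in glucose, against 6.31, 8.57 and 4.79 CPM in mannitol. Glucose was below mannitol for MBP2 too, but the difference of -2.08 ± 0.85 missed the threshold (edgeR adjusted p = 0.0528), and it passed without replicate 2 of glucose (-3.37, edgeR adjusted p = 0.00872) or replicate 2 of fructose (-2.07, edgeR adjusted p = 0.0197). It was also called by DESeq2 (adjusted p = 0.0242) and by edgeR with only the 2 groups in the fit (0.0264), all 18 libraries (0.0169), RLE scaling (0.0453), a filter of 1 CPM in 3 libraries (0.0489) or the 100 most abundant genes left out (0.0479). MBP2 was 2.81 ± 0.84 higher in fructose than in glucose (edgeR adjusted p = 0.0244; 0.0836 by limma-voom).

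Single libraries carried weight in the discs. Replicate 2 of fructose was the lowest of its group for 9 of the 10 genes and replicate 2 of glucose the highest of its group for 9, with NSP5 the exception in fructose and also in glucose. The number of the 10 genes higher in fructose than in glucose was 1 without replicate 3 of fructose and 2 without replicate 3 of glucose. It was 6 with all libraries. The shares of all genes called in these smaller fits are not given here. Without replicate 3 of fructose, MBP1 (edgeR adjusted p = 0.0715), MBP2 (0.0922), JAL23 (0.052) and NSP1 (0.111) were not called. Without replicate 3 of glucose, MBP1 (0.0544), MBP2 (0.0644) and NSP1 (0.077) were not called. MBP2 and NSP1 were also not called without replicate 1 of fructose (0.0581 and 0.0591) or of glucose (0.0649 and 0.0665), nor with no filter (0.0514 and 0.0632). With only the 2 groups in the fit, MBP1 (0.0518), MBP2 (0.0595) and NSP1 (0.0617) were not called. Leaving out replicate 2 of glucose enlarged the log2 differences between fructose and glucose to 4.74 for BGLU18, 5.95 for MBP1, 4.11 for MBP2 and 3.04 for NSP1, and the falls in glucose against mannitol to -5.68 for MBP1 and -3.40 for NSP1.

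**Figure D3:**
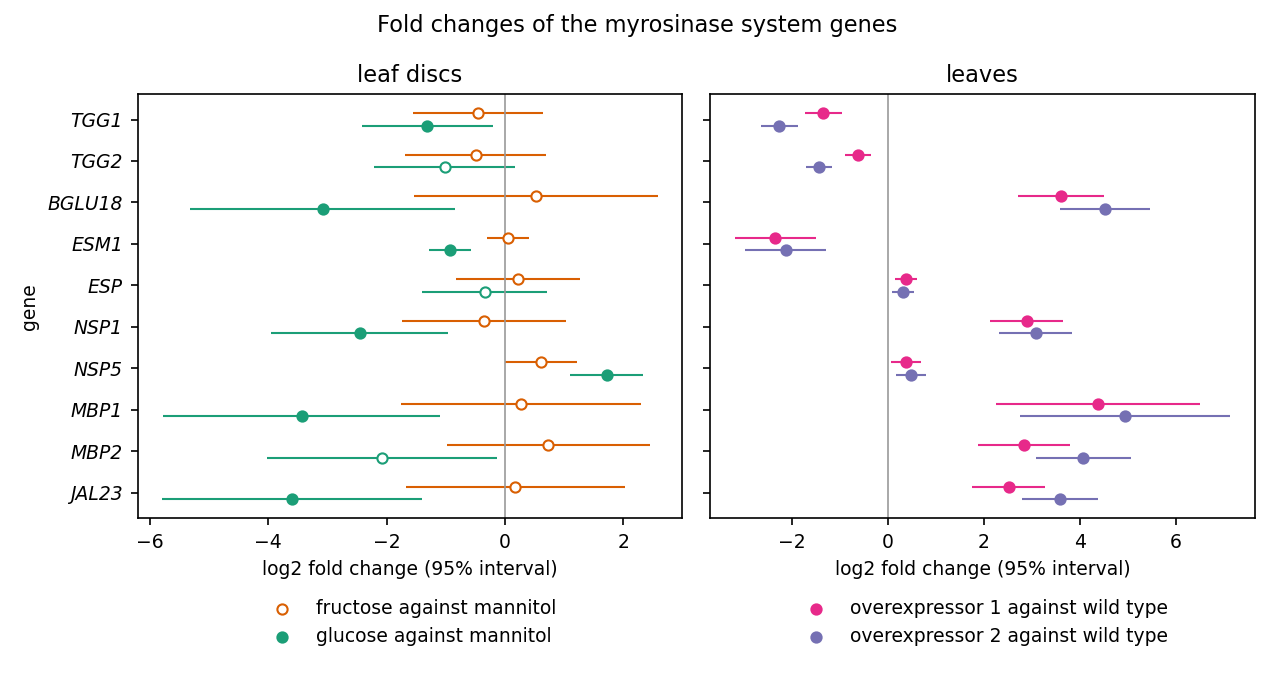
Log2 fold changes of the 10 genes with 95% intervals, in discs for fructose and glucose against mannitol and in leaves for overexpressor 1 and overexpressor 2 against wild type. Filled points had an edgeR adjusted p under 0.05 and open points did not. BGLU18, NSP1, MBP1 and JAL23 lie left of 0 in glucose and right of 0 in both overexpressors, while all fructose intervals reach or cross 0.

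The markers of cell types also differed between the discs. Of all genes tested, 36.6% rose and 29.5% fell in fructose against mannitol, and 38.5% and 35.5% in glucose. The 6 mesophyll markers summed to 5222 to 9531 CPM in fructose and 395 to 1771 CPM in glucose, against 21010 to 33120 CPM in mannitol, and all 6 fell in glucose while 5 fell in fructose. The guard and myrosin cell markers summed to 178 to 210.2 CPM in fructose and 248 to 330.0 CPM in glucose, against 93.5 to 104 CPM in mannitol. Of these 9 markers, 2 rose and 1 fell in fructose, and 2 rose and 3 fell in glucose, with median log2 fold changes of -0.15 in fructose and 0.09 in glucose. Most of the rise in the sum came from 2 potassium channel genes of guard cells: GORK averaged 44.8 CPM in fructose and 160.8 CPM in glucose, against 4.43 CPM in mannitol, and KAT1 81.2 CPM in fructose and 58.9 CPM in glucose, against 20.9 CPM in mannitol. FMA of the same list averaged 9.5 CPM in fructose and 12.0 CPM in glucose, against 10.7 CPM in mannitol, and was called in neither. The 6 epidermis markers summed to 476 to 682 CPM in fructose and 139 to 355 CPM in glucose, against 674 to 925 CPM in mannitol (0 rose in either sugar, 2 fell in fructose and 4 in glucose). The 4 phloem markers summed to 203 to 279 CPM in fructose and 193 to 240.1 CPM in glucose, against 373 to 569 CPM in mannitol, and all 4 fell in both sugars. Root, flower and seed storage markers each summed to at most 1.80 CPM in any disc library, with at least 4 of the 5 root and 7 of the 8 seed storage markers at 0 in each group. The part of these shifts in the changes of the 10 genes was not tested.

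Per kilobase of exon, ESM1 led in every disc group, at 4716 ± 755 CPM per kb in fructose and 2397 ± 331 in glucose, against 4555 ± 93.6 in mannitol (SD, n = 3). In fructose TGG1, NSP5, BGLU18 and TGG2 followed at 302 ± 102, 255 ± 104, 201 ± 146 and 193 ± 66.1 CPM per kb with overlapping neighbours. In glucose NSP5 was next, at 550.1 ± 91.5 CPM per kb and above every library of TGG1 at 166.5 ± 87.4 CPM per kb, and BGLU18 had only 16.6 ± 16.2 CPM per kb. In mannitol TGG1, TGG2, NSP5 and BGLU18 followed at 413 ± 162, 272.5 ± 122, 167 ± 30.9 and 140.4 ± 59.1 CPM per kb. The 10 genes took 0.987% to 1.39% of counts in fructose and 0.576% to 0.750% in glucose, against 0.952% to 1.04% in mannitol. ESM1 made up most of this, with 0.840% to 1.13% of counts in fructose and 0.400% to 0.550% in glucose, against 0.769% to 0.836% in mannitol.

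Other genes of glucosinolate turnover gave the following picture. The counts per list, here and in the next paragraphs, stand beside these shares called of all genes tested. In leaves 21.5% rose and 22.3% fell in overexpressor 1, and 20.6% and 21.5% in overexpressor 2. In discs 36.6% rose and 29.5% fell in fructose against mannitol, and 38.5% and 35.5% in glucose. In fructose against glucose 24.7% were higher and 24.6% lower. Of 17 other jacalin lectin genes, 8 could be tested in leaves, of which 7 rose and 1 fell in each overexpressor. PBP1, a lectin that binds the beta-glucosidase PYK10, held 50.7 ± 6.47 CPM in overexpressor 1 and 69.3 ± 7.50 CPM in overexpressor 2, against 11.0 ± 2.89 CPM in wild type (SD, n = 3; edgeR adjusted p = 0.000155 and 5.96e-05). In discs 5 of the 17 could be tested, of which 1 rose and 2 fell in fructose against mannitol, 4 fell in glucose against mannitol and 5 were higher in fructose than in glucose. PBP1 held 7.39 ± 2.46 CPM in fructose and 3.46 ± 1.47 CPM in glucose, against 36.6 ± 4.14 CPM in mannitol, and it fell in both sugars (edgeR adjusted p = 0.000154 in fructose and 1.31e-05 in glucose). MBP1 was called in glucose and not in fructose, and whether the genes differ in this was not tested.

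The ER body list holds 4 genes, all of which rose in both overexpressors. NAI2, a structural ER body protein, held 5.73 ± 1.06 CPM in overexpressor 1 and 9.03 ± 1.03 CPM in overexpressor 2, against 1.09 ± 0.326 CPM in wild type (edgeR adjusted p = 0.000219 and 7.93e-05). NAI1, the bHLH regulator of ER bodies, held 0.785, 4.37 and 3.74 CPM in overexpressor 1 and 9.03, 5.65 and 5.35 CPM in overexpressor 2, against 0.975, 0.263 and 0.444 CPM in wild type; replicate 1 of overexpressor 1 lay within the wild-type range although the gene was called (edgeR adjusted p = 0.0168 and 0.00272). In discs 2 of the 4 fell in fructose against mannitol and 3 in glucose. NAI2 held 0.375 ± 0.0452 CPM in fructose and 0.234 ± 0.286 CPM in glucose, against 2.88 ± 0.663 CPM in mannitol (edgeR adjusted p = 0.000837 and 0.000262). PYK10, the ER body enzyme of roots, had 86 reads in overexpressor 1 and 91 in overexpressor 2, against 1 read in all wild-type libraries, an average of 1.12 CPM and 1.61 CPM in the lines.

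**Figure D4:**
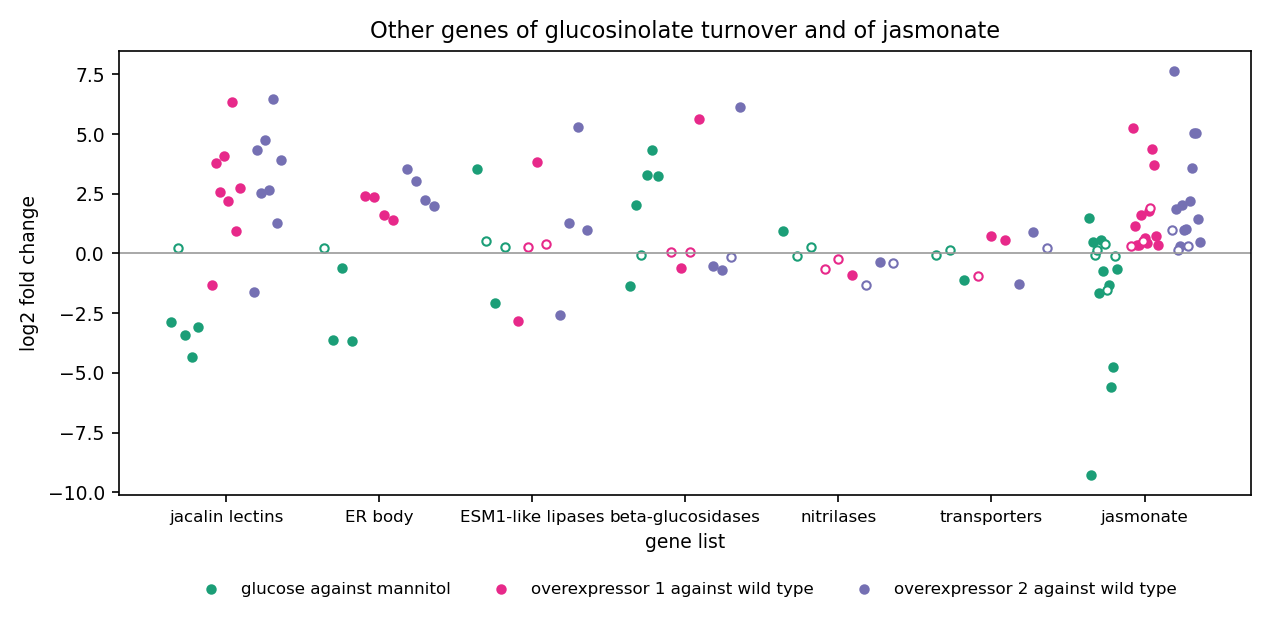
Log2 fold changes of 7 lists of related genes, in glucose against mannitol and in overexpressor 1 and overexpressor 2 against wild type; 1 point is 1 tested gene, filled where the edgeR adjusted p was under 0.05. Jacalin lectins, ER body genes and jasmonate genes lie mostly above 0 in the lines; the outermost points (THI2.1, PYK10 and some lectins) are genes with few or no reads in a group, whose fitted fold is not a measured size.

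All 4 other myrosinase genes of the list were at 0 in all 18 libraries, among them TGG4 and TGG5, the root-type myrosinases, and TGG6. NSP2 and NSP3 had at most 4 reads in any group. NSP4, the neighbour of NSP1, held 3.07 ± 0.530 CPM in overexpressor 1 and 2.62 ± 2.69 CPM in overexpressor 2, against 0.167 ± 0.157 CPM in wild type, and rose in both lines (edgeR adjusted p = 0.00413 and 0.00662). The libraries of overexpressor 2 held 5.72, 1.04 and 1.09 CPM of NSP4. The far more abundant NSP1 shares 515 exon windows with NSP4. Whether reads of NSP1 were counted in NSP4 was not tested. PEN2, the atypical myrosinase of leaf defence against fungi, went down where BGLU18 went up: it held 173 ± 32.4 CPM in overexpressor 1 and 163.5 ± 7.52 CPM in overexpressor 2, against 263 ± 18.2 CPM in wild type (edgeR adjusted p = 0.00593 and 0.00358). In discs PEN2 held 185.5 ± 20.7 CPM in fructose and 258 ± 30.4 CPM in glucose, against 270.3 ± 29.1 CPM in mannitol, and fell in fructose (edgeR adjusted p = 0.00364) but was not called in glucose (edgeR adjusted p = 0.646). The list of other beta-glucosidases, PEN2 included, had 4 genes with enough counts in leaves, of which 1 rose and 1 fell in overexpressor 1 and 1 rose and 2 fell in overexpressor 2, and 6 in discs, of which 2 rose and 1 fell in fructose and 4 rose and 1 fell in glucose. BGLU25 held 249.6 ± 34.7 CPM in fructose and 196 ± 6.99 CPM in glucose, against 20.2 ± 3.36 CPM in mannitol (edgeR adjusted p = 5.31e-08 and 4.22e-08), so it rose in both sugars.

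The 4 lipase genes related to ESM1 gave mixed calls. In overexpressor 1, 1 rose and 1 fell, and in overexpressor 2, 3 rose and 1 fell, while ESM1 fell in both. MVP1, a lipase-like protein of the endomembrane system, rose by 1.00 ± 0.18 in overexpressor 2 (edgeR adjusted p = 0.00213). In discs 2 of the 4 rose in fructose against mannitol, and 1 rose and 1 fell in glucose. Of the 3 nitrilases, which act on nitriles, 1 fell in each overexpressor, 1 fell in fructose and 1 rose in glucose, where NIT2 held 657 ± 106 CPM, against 341 ± 50.1 CPM in mannitol (edgeR adjusted p = 0.000373). Of the 3 transport genes, GTR1, an importer of glucosinolates, rose in both lines (edgeR adjusted p = 0.0103 in overexpressor 1 and 0.00472 in overexpressor 2), and GTR2, a related importer, rose by 0.56 ± 0.11 in overexpressor 1 (edgeR adjusted p = 0.00339; 0.112 in overexpressor 2). GTR2 fell by 0.47 ± 0.16 in fructose (edgeR adjusted p = 0.0242) and by 1.10 ± 0.16 in glucose (0.000123). PEN3, a plasma membrane exporter of defence compounds, fell by 1.27 ± 0.36 in overexpressor 2 (edgeR adjusted p = 0.0204; 0.0585 in overexpressor 1) and by 0.81 ± 0.16 in fructose (0.00128).

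Jasmonate is the hormone of wounding, and the MYC factors that carry its signal bind G-boxes. Of 15 jasmonate genes tested in leaves, 12 rose and 0 fell in overexpressor 1 and 12 rose and 0 fell in overexpressor 2, with median log2 fold changes of 0.73 and 1.45. Of all genes tested, 21.5% rose and 22.3% fell in overexpressor 1, and 20.6% and 21.5% in overexpressor 2. The jasmonate list was chosen with earlier results of these libraries known. VSP2, a storage protein and wound marker, held 266.5, 729 and 748 CPM in overexpressor 1 and 1493, 674 and 667 CPM in overexpressor 2, against 46.3, 23.2 and 15.3 CPM in wild type. As with BGLU18, replicate 1 of overexpressor 1 was the lowest of its line and replicate 1 of overexpressor 2 the highest. VSP2 rose by 4.36 ± 0.61 (edgeR adjusted p = 0.00089) and by 5.06 ± 0.63 (edgeR adjusted p = 0.000632), and VSP1 by 3.73 ± 0.55 (edgeR adjusted p = 0.0011) and by 5.05 ± 0.57 (edgeR adjusted p = 0.000455) in overexpressor 1 and overexpressor 2. In discs 4 of the 15 rose and 4 fell in fructose against mannitol, 3 rose and 7 fell in glucose against mannitol, and in fructose against glucose 6 were higher and 2 lower. Of all genes tested, 36.6% rose and 29.5% fell in fructose against mannitol, and 38.5% and 35.5% in glucose. In fructose against glucose 24.7% of all genes tested were higher and 24.6% lower. VSP2 in discs held 53.3, 0.291 and 50.6 CPM in fructose and 0.205, 0.906 and 0.145 CPM in glucose, against 38.7, 16.2 and 8.59 CPM in mannitol. Replicate 2 of fructose was low for VSP2 as it was for BGLU18 and the lectins. MYC3 rose in both lines (0.37 ± 0.13, edgeR adjusted p = 0.0375, and 0.47 ± 0.13, edgeR adjusted p = 0.0147) and fell in both sugars against mannitol. MYC4 rose in overexpressor 1 (0.44 ± 0.14, edgeR adjusted p = 0.0261) and did not pass the test in overexpressor 2 (0.32 ± 0.14, edgeR adjusted p = 0.0817). In discs MYC4, unlike MYC3, rose in fructose against mannitol (0.82 ± 0.18, edgeR adjusted p = 0.00274). It was not called in glucose against mannitol (0.41 ± 0.19, edgeR adjusted p = 0.0696). MYC2 is listed at 0 in all 18 libraries, as are 7331 of the 32833 genes, so nothing is read from its value here, nor from the zeros of TGG4 to TGG6.

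The genes whose log2 CPM most resembled each member over the 9 libraries of an experiment were found among 14154 genes in discs and 13863 in leaves with at least 5 CPM on average. The libraries fall into groups and share treatment, so these correlations are descriptions. For BGLU18 the closest gene was AT5G07960 in discs (Pearson r = 0.9975) and MIOX1 in leaves (r = 0.9979). TSA1 was ranked next to the top for BGLU18 in both experiments, with r = 0.9905 in discs and 0.9972 in leaves. TSA1 held 183, 456 and 468 CPM in overexpressor 1 and 859, 562.5 and 567 CPM in overexpressor 2, against 53.7, 67.3 and 40.2 CPM in wild type. In discs it held 51.7, 15.9 and 73.8 CPM in fructose and 3.84, 13.3 and 9.04 CPM in glucose, against 49.9, 32.7 and 22.6 CPM in mannitol, which within each sugar is the order of libraries seen for BGLU18. TSA1 was also among the closest to JAL23 in discs (r = 0.981), after AT1G55340 (r = 0.988). TGG1 and TGG2 had the same gene, AT4G39900, at the top in discs (r = 0.949 and 0.9502). In leaves TGG1 was closest to PGLCT, the plastid glucose transporter (r = 0.996), and LHB1B1, a light-harvesting protein (r = 0.994). ESM1 was closest to AT1G71710 and PPOX in discs (r = 0.993 each), NSP5 to AT3G15430 in discs (r = 0.993) and AT2G23120 in leaves (r = 0.994), and ESP to CLH1, a chlorophyllase, in discs (r = 0.981). MBP2 and JAL23 had the same gene, AT2G43530, among their closest in leaves (r = 0.9965 and 0.998). MBP1 was closest to POR C in discs (r = 0.998), and NSP1 to SDR1 in leaves (r = 0.998).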

How the data were processed

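The authors deposited read counts per gene for 18 libraries, and the table holds whole numbers. The submitters' processing notes name fastp, HISAT2 2.0.5, StringTie 1.3.3 and the build TAIR10, with no roles. Per the labels' protocols libraries were directional; which tool counted the reads, and with what strand option, is not given in the sources used here. Names, coordinates and sequences are from RefSeq TAIR10.1, to which 32548 of 32833 genes matched.

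Each experiment was fitted apart in edgeR 4.0.16 (R 4.3.3): filterByExpr, TMM scaling, 1 mean per group, no replicate block and the robust quasi-likelihood test, with 6 residual degrees of freedom and an adjusted p under 0.05 as the call. The ± of a fold change (SE) is its size divided by the root of F, and the 95% interval uses the test's degrees of freedom. CPM are TMM-scaled. Alternatives were DESeq2 1.42.0, limma-voom (limma 3.58.1), scaling by RLE or by library size alone, other filters, a replicate block, other sets of libraries, merged close replicates, an adjusted p under 0.01, leaving out the 100 most abundant genes and leaving out each library. The fitting steps were tested on simulated data.

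The members and lists were chosen with earlier results of these data known. Genes named were the 10 members, up to 2 called genes per list and comparison with the smallest p, 15 genes of note whatever their values, and the 2 genes closest to each member by correlation of log2(CPM + 0.5). TSA1 was followed further after its values were seen.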

Additional observations from a re-analysis of the deposited data

How the results depend on the processing

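Over the 6 comparisons, 230 of 246 recounts of called genes stayed within 1.5 times the main count and 16 did not. The number higher in fructose against glucose was 6 and became 1 at an adjusted p under 0.01, 3 with only the 2 groups compared, 3 with the replicate block and 1 to 6 with each library left out in turn. The number lower in glucose against mannitol was 6 and became 3 at an adjusted p under 0.01. The number higher in fructose against mannitol was 0 and became 1 with library size only (NSP5), and 0 to 1 with a library left out. In overexpressor 2 against overexpressor 1, DESeq2 called 2 higher and 2 lower where edgeR called 0 and 0; the number lower was 1 without a filter, 1 with only the 2 groups compared and 0 to 2 with a library left out. Without the 100 most abundant genes, the number lower in overexpressor 1 and in overexpressor 2 was 1 in place of 3, because TGG1 and ESM1 are among the genes left out. With library size as the only scaling, the median log2 fold change of all genes was 0.34 in fructose and 0.23 in glucose against mannitol, and 0.22 in overexpressor 1 and 0.28 in overexpressor 2 against wild type. No called fold change reversed in any setting. Same-numbered libraries showed no clear shared deviation (correlations of -0.457 to 0.184 over 18 pairs of libraries). With 3 libraries per group, a weak pairing by number could still be missed. The replicate block lost the calls of BGLU18, MBP2 and NSP1 in fructose against glucose (edgeR adjusted p = 0.0532, 0.0598 and 0.0634). It also lost that of ESP in overexpressor 2 (0.0523), and no other call. With few reads, MBP1, MBP2 and JAL23 in glucose are limited by depth: the lowest library of MBP1 had 5 reads.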
